A study of Mus musculus with 36 samples.

Results

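The 36 genes examined here encode the contractile filaments of skeletal muscle, the proteins that couple a nerve impulse to contraction, and the factors that switch on the muscle program. They were taken by symbol from a named list that sets no condition on measured values, and all 36 were found among the 53379 genes of the count tables. By the isoform each is known for, 12 were placed with fast fibers, 7 with slow fibers, 3 with developing muscle, 1 with extraocular muscle, 11 with all fiber types and 2 with myogenic transcription factors. The series holds 36 RNA libraries from mice. Every tissue was formalin-fixed and paraffin-embedded, and total RNA went into stranded libraries with no removal of ribosomal RNA. In the adult model, Sglt2-Cre drove recombination of ASPSCR1-TFE3 LSL/+, the gene fusion of translocation renal cell carcinoma, in 6 mice. From those mice came 11 libraries of kidney tumors, 4 of tumors behind the eye (retro-orbital), 3 of brain tumors and 4 of kidney called non-transformed, and 3 mice with Sglt2-Cre alone gave 6 kidney libraries. In the fetal model, kidneys called dysmorphic came from 5 fetuses with Pax8-Cre and ASPSCR1-TFE3 LSL/+. Kidneys of 3 fetuses labelled as Pax8-Cre controls were set against them, although the design text allows that a control carried ASPSCR1-TFE3 LSL/+ and no Cre. Ages were not given. Both Cre lines use promoters of kidney lineage genes, Sglt2 being active in the proximal tubule and Pax8 in the nephron and collecting duct lineage, so neither Cre was directed at muscle.

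Skeletal muscle contracts when myosin thick filaments pull on actin thin filaments, under the control of a calcium switch made of troponin and tropomyosin. Most of these proteins exist as fast and slow isoforms, and the myosin heavy chains also have embryonic (Myh3), neonatal or perinatal (Myh8) and extraocular (Myh13) forms, so the mixture of isoforms marks the age and the type of a muscle. Normal kidney epithelium does not make sarcomeres, while muscle lies beside the kidney in the body wall and behind the eye in the orbit.

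Library totals ranged from 80205573 to 121415057 counts, and libraries of the same mouse and group were summed, so that the animal was the replicate. Levels are given as TMM-normalized CPM (counts scaled to library size), and where genes are compared with each other, as CPM per kb of transcript. The fetal and adult tables were normalized separately, so a level set across them is a description. Kidney markers were checked in the fetal libraries. The summed level of 12 nephron markers was 2429, 1537 and 1424 CPM in control fetuses 1 to 3, and 60.3, 247.9, 76.6, 26.7 and 866 CPM in dysmorphic fetuses 1 to 5. In control fetus 3 all but Cubn (1342 CPM) and Lrp2 (74.6 CPM) were low, with Nphs1 at 0.162 CPM and Aqp2 at 0.0540 CPM, so this library went against its label as kidney in most markers. Y-linked transcripts marked dysmorphic fetuses 1 to 3 and control fetus 1 as male and the other fetuses as female.

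Promoters were available from RefSeq (GRCm38.p6) for 31 of the 36 genes. The 250 bases before the start of 6 genes are shown because these genes, of differing role and isoform, were all called higher in the dysmorphic fetal kidneys. Capitals mark each match to CANNTG, the E-box to which MyoD and myogenin bind, on either strand, and each match to TATAAA, the TATA box, on the strand of the gene. Myh3 lies at chr11:67078050-67078299 (plus strand), Myh8 at chr11:67276874-67277123 (plus), Chrng at chr1:87205561-87205810 (plus), Acta1 at chr8:123894776-123895025 (minus), Ckm at chr7:19410844-19411093 (plus) and Myog at chr1:134289754-134290003 (plus).
Myh3: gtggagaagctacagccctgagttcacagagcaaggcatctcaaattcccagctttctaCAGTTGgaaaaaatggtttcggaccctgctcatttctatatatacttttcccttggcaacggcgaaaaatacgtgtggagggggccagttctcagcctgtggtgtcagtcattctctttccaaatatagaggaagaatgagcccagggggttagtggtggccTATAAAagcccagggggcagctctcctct
Myh8: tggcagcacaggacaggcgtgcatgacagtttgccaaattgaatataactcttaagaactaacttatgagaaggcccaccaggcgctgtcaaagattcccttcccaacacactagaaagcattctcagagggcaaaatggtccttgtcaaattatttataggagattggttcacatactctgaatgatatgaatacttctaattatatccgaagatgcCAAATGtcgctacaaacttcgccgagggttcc
Chrng: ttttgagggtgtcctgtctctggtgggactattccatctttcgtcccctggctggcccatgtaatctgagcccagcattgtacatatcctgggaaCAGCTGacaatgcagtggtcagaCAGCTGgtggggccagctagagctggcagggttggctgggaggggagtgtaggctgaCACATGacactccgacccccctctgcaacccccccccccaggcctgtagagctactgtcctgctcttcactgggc
Acta1: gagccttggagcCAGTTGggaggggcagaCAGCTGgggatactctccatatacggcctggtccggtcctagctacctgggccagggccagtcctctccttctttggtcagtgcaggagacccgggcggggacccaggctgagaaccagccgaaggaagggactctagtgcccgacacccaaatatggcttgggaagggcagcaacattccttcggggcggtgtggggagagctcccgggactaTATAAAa
Ckm: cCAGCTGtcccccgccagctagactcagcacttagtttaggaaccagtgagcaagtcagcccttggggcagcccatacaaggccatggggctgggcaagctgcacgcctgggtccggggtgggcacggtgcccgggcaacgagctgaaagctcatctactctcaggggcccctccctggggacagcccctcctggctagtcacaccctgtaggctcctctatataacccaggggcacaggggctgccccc
Myog: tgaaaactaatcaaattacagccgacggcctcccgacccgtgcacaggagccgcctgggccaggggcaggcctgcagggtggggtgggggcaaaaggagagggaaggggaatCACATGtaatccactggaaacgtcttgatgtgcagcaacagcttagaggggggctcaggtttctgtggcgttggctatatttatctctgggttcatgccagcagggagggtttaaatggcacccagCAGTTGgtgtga
CANNTG was found in 28 of the 31 promoters (90.3%), against 66.2% of 32851 mouse promoters of the same length. The form CAGCTG, which is contained in CANNTG, was found in 13 of the 31 (41.9%), against 13% of all promoters. In the shown sequences it occurred in Chrng, Acta1 and Ckm. TATAAA was found in 5 of the 31 (16.1%), against 7.6%. Matches to the MEF2 consensus were found in 4 and to the CArG box in 3 of the 31, against 1.7% and 1.5% of all promoters. A match is a description of letters and shows no binding.

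The comparison of dysmorphic with control fetal kidneys asks how the fusion alters the developing kidney. Every one of the 36 genes was higher in all 5 dysmorphic kidneys than in all 3 controls. In edgeR's quasi-likelihood test, 32 passed an adjusted p of 0.05, all of them higher, beside 2.40% of 22690 tested genes. Non-overlap in that direction was seen for 9.64% of all tested genes, and an unadjusted p below 0.05 in that direction for 36 of the 36 and 12.6% of all. The median log2 fold change of the 36 genes was 2.25, while that of all genes was -0.04, and the 36 values lay between 1.53 (Tpm2) and 2.95 (Myh2). In bulk RNA, more muscle cells and more RNA per muscle cell cannot be told apart. Together these genes took 2.31% to 2.66% of all counts in the controls and 5.81% to 12.6% in the dysmorphic kidneys.

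**Figure D1:**
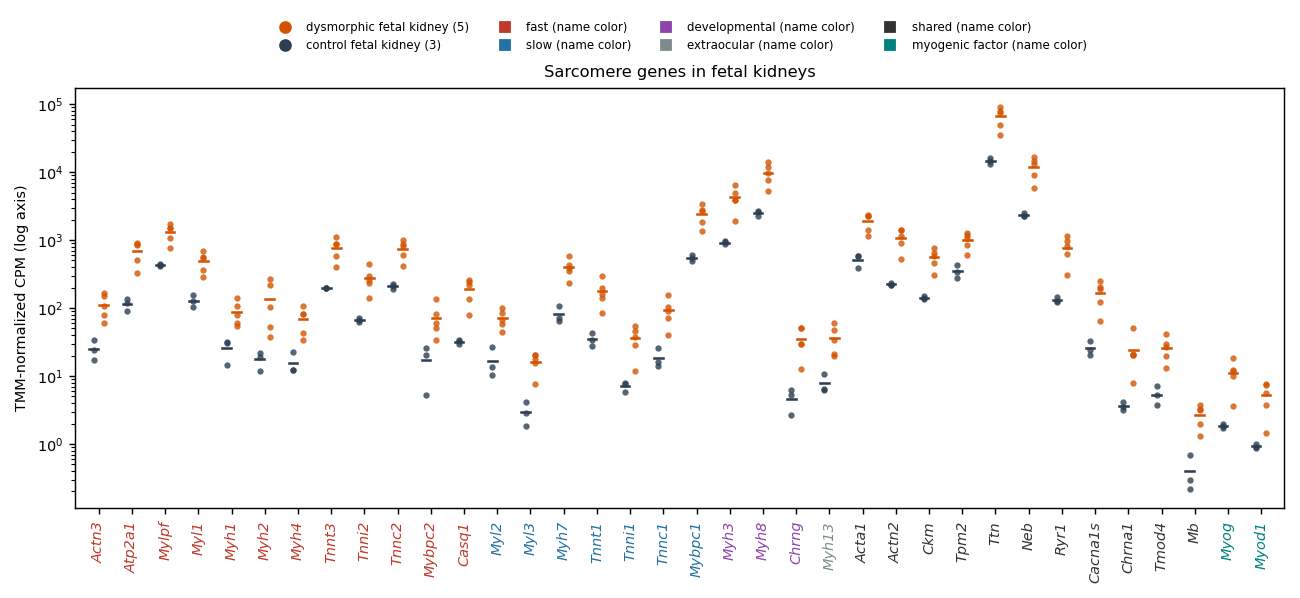
TMM-normalized CPM of each of the 36 genes (log axis) in 5 dysmorphic (orange) and 3 control (dark) fetal kidneys. Each point is 1 fetus, each short line is a group mean, and the color of a gene name gives its class. In every gene the orange points lie above the dark ones.

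The developmental genes were abundant in both groups. Myh8, the neonatal myosin heavy chain, was at 2273, 2589 and 2631 CPM in the controls and at 11968, 5265, 9819, 14068 and 7620 CPM in dysmorphic fetuses 1 to 5 (log2 fold change 1.97, SE 0.31, edgeR adjusted p = 0.035). Myh3, the embryonic chain, was at 955, 862 and 926 CPM in the controls and at 3890, 1921, 4981, 6532 and 3825 CPM in the dysmorphic kidneys (log2 fold change 2.21, SE 0.36, edgeR adjusted p = 0.035). Dysmorphic fetus 2 had the lowest and fetus 4 the highest value of both genes, and the groups did not overlap. Chrng, the fetal gamma subunit of the acetylcholine receptor at the neuromuscular synapse, rose from 5.17, 2.63 and 6.16 CPM to 29.2, 12.7, 50.5, 51.1 and 30.0 CPM (log2 fold change 2.90, SE 0.53, edgeR adjusted p = 0.038).

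Of the 12 fast-fiber genes, 9 were called higher and the other 3 (Myh1, Myh2 and Mybpc2) had edgeR adjusted p-values of 0.057, 0.075 and 0.11. Mylpf, the fast regulatory light chain of myosin, was the most abundant per length of the 36 genes in both groups (1716 ± 502 CPM per kb, SD, n = 5, against 562 ± 17.3, n = 3). Its values were 420, 445 and 426 CPM in controls and 1515, 770, 1497, 1718 and 1072 CPM in dysmorphic kidneys. Tnnt3, the fast troponin T, was almost equal in the controls, at 196, 196 and 200 CPM, and was at 887, 406, 868, 1123 and 581 CPM in dysmorphic kidneys. Atp2a1, the calcium pump of the fast sarcoplasmic reticulum, was higher by 2.60 on the log2 scale (SE 0.38), and Casq1, the calcium store protein of that compartment, by 2.55 (SE 0.40), both at an edgeR adjusted p of 0.035. Actn3, Myl1, Myh4, Tnnt3, Tnni2, Tnnc2 and Mylpf, the other fast genes called, had log2 fold changes of 1.61 to 2.17. The adult fast myosin heavy chains were sparse beside Myh8 and Myh3. Myh4, the chain of the fastest fibers, was at 2.62 ± 0.983 CPM per kb in controls and 11.5 ± 5.05 CPM per kb in dysmorphic kidneys (SD, n = 3 and 5), and Myh2 spread from 37.2 to 269 CPM over the dysmorphic kidneys. Myh1, the chain of intermediate fast fibers, was at 30.6, 31.3 and 14.3 CPM in controls and 106, 54.7, 79.6, 140 and 61.2 CPM in dysmorphic kidneys. Mybpc2, the fast myosin-binding protein C, had the widest error for its size (log2 fold change 2.09, SE 0.61), with 5.33 CPM in control fetus 3 against 20.1 and 25.5 CPM in the other controls.

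All 7 slow-fiber genes were called higher, with log2 fold changes of 2.08 to 2.48. Myh7, the slow and cardiac myosin heavy chain, was at 107, 72.4 and 65.1 CPM in controls and at 386, 237, 426, 579 and 356 CPM in dysmorphic kidneys (log2 fold change 2.29, SE 0.31). Mybpc1, the slow myosin-binding protein C, was the leading slow gene per length, at 147 ± 14.8 CPM per kb in controls and 644 ± 216 in dysmorphic kidneys (SD, n = 3 and 5). Tnnt1, the slow troponin T, was at 43.3, 28.1 and 33.5 CPM in controls and 142, 85.4, 199, 292 and 160 CPM in dysmorphic kidneys. The groups did not overlap in either gene, with fetus 2 again the lowest of its group. Myl3, the slow essential light chain, was the sparsest in CPM, at 4.12, 1.81 and 2.86 CPM in controls and 15.4, 7.57, 20.5, 20.1 and 17.9 CPM in dysmorphic kidneys. The median log2 fold change was 2.31 for the slow and 2.07 for the fast genes, a difference that was not tested.

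Myh13, the superfast chain of extraocular muscle, was at 6.30, 10.6 and 6.48 CPM in controls and at 59.9, 19.9, 47.1, 33.9 and 21.0 CPM in dysmorphic kidneys (log2 fold change 2.23, SE 0.44, edgeR adjusted p = 0.044). Its share of the 7 myosin heavy chains measured, per length, lay between 0.159% and 0.360% in every fetus.

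All 11 genes common to fiber types were called higher. Ttn, the giant spring protein titin, was the largest single contributor to the counts, at 14536, 15836 and 13009 CPM in controls and 74580, 34516, 90945, 79894 and 49306 CPM in dysmorphic kidneys (log2 fold change 2.19, SE 0.32, edgeR adjusted p = 0.035). Its transcript is the longest of the 36, and per length, at 616 ± 217 CPM per kb in dysmorphic kidneys (SD, n = 5), it was below Mylpf, Myh8, Acta1, Tnnc2, Tnnt3, Myh3 and Mybpc1. Acta1, skeletal muscle actin, was at 575, 573 and 383 CPM in controls and 2250.1, 1152, 2291, 2354 and 1413 CPM in dysmorphic kidneys. Neb, the thin filament ruler nebulin, was at 2266, 2476 and 2270 CPM in controls and 13130, 5738, 16915, 14405 and 8966 CPM in dysmorphic kidneys. Ttn and Neb were both highest in dysmorphic fetus 3, and lowest of their group in fetus 2. Ckm, muscle creatine kinase, was at 136, 151 and 139 CPM in controls and 643, 303, 592, 776 and 456 CPM in dysmorphic kidneys. The coupling genes Ryr1, the calcium release channel, and Cacna1s, its voltage sensor, had log2 fold changes of 2.56 (SE 0.41) and 2.71 (SE 0.44). Actn2, a cross-linker of actin at the Z disc, Tmod4, a cap of the thin filament, and Chrna1, the alpha subunit of the acetylcholine receptor, had log2 fold changes of 2.27, 2.30 and 2.73. Tpm2, beta tropomyosin, moved least, from 272, 344 and 424 CPM to 1057, 605, 1189, 1290.1 and 842 CPM. Mb, the oxygen store myoglobin, was scarce in both groups, at 0.216 to 0.689 CPM and 1.30 to 3.79 CPM.

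The myogenic factors, which switch on the other genes in muscle precursors, were low in both groups. Myog (myogenin) was at 1.998, 1.86 and 1.72 CPM in controls and 11.9, 3.56, 12.2, 18.6 and 9.92 CPM in dysmorphic kidneys (log2 fold change 2.60, SE 0.49, edgeR adjusted p = 0.040). Myod1 had a log2 fold change of 2.48 (SE 0.54) and missed the threshold, with an edgeR adjusted p of 0.054. Its control values of 0.999, 0.866 and 0.918 CPM did not overlap the 5.60, 1.44, 7.40, 7.69 and 3.81 CPM of the dysmorphic kidneys.

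The myosin mixture was led by the same 2 developmental chains in both groups. As shares of the 7 myosin heavy chains per length, Myh8 made up 66.1% ± 3.79 in dysmorphic and 69.7% ± 2.86 in control kidneys, Myh3 28.9% ± 4.04 and 26.1% ± 2.15, and Myh7 2.71% ± 0.309 and 2.27% ± 0.725 (SD, n = 5 and 3). Myh1, Myh2 and Myh4 each made up less than 1% on average in both groups, up to 0.888% ± 0.573 for Myh2 in the dysmorphic kidneys. The ranges of all 7 shares overlapped between the groups, and the differences were not tested. Within isoform pairs, the slow troponin T was present at 0.232 ± 0.0460 of the fast one per length in dysmorphic and 0.181 ± 0.0406 in control kidneys (Tnnt1 to Tnnt3). The ratio of Tnni1 to Tnni2 was 0.0744 ± 0.0232 and 0.0616 ± 0.00779, and that of Myh3 to Myh8 was 0.441 ± 0.0847 and 0.376 ± 0.0467. The ranges of these 3 ratios overlapped between the groups.

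**Figure D2:**
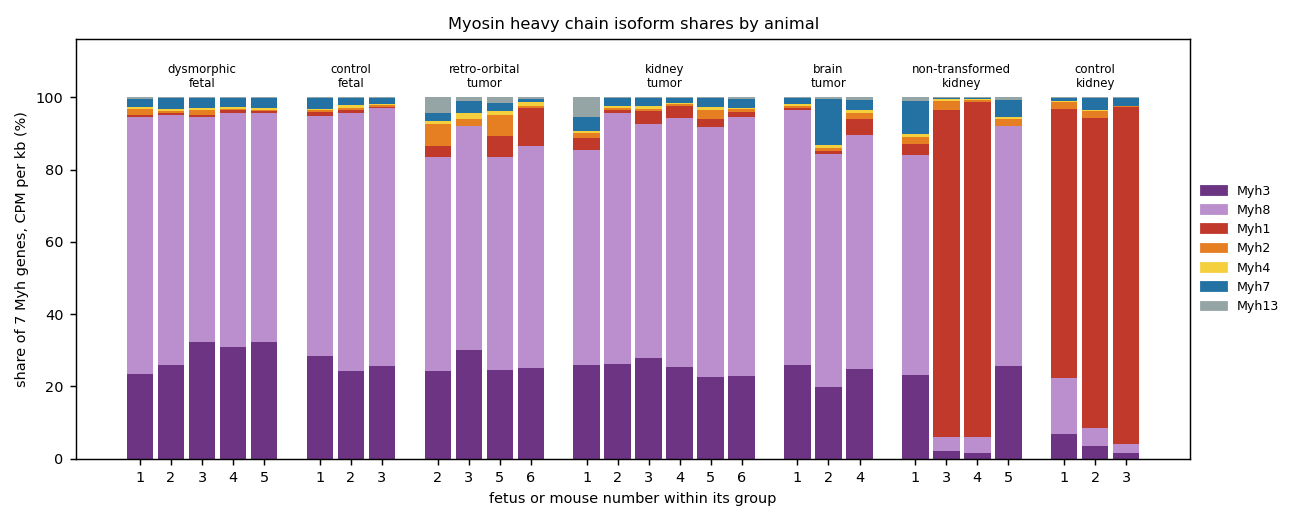
Share of each of 7 myosin heavy chain genes in their summed CPM per kb (%), 1 bar per fetus or mouse, grouped by tissue. Myh3 and Myh8 (purple) fill 94.5% to 97.0% of every fetal bar and most of every tumor bar, while Myh1 (red) fills 74.4% to 93.2% of the control kidney bars. In the non-transformed kidney bars Myh8 leads in mice 1 and 5 and Myh1 in mice 3 and 4.

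Other muscle genes were also higher. Of 54 further genes of muscle structure, metabolism and myogenesis, 54 had positive log2 fold changes (median 2.21), 46 were called higher and 52 did not overlap. They included Klhl41, a sarcomere stabilizer (log2 fold change 2.19, SE 0.31), Myf5 (2.79, SE 0.46) and Chrnd, the delta subunit of the acetylcholine receptor (2.72, SE 0.47). Markers of other tissues differed as well, and their part in the result was not tested. Of 8 keratinocyte markers, 8 did not overlap and 2 were called higher, with summed levels of 19.4 to 813 CPM in controls and 1507 to 4911 CPM in dysmorphic kidneys. The 12 cartilage and bone markers were higher on average, with a median log2 fold change of 5.66 and none called. Their sum was 14.7 to 30.8 CPM in controls and 16.5, 82.6, 1148, 402 and 3015 CPM in dysmorphic fetuses 1 to 5. The 5 tendon markers summed to 13.3 to 37.5 CPM and 34.4 to 543 CPM. The 8 smooth muscle markers summed to 487, 1793 and 2885 CPM in controls and 541 to 1646 CPM in dysmorphic kidneys, with no gene called. The 10 cardiac markers summed to 400 to 507 CPM in controls and 736 to 1933 CPM in dysmorphic kidneys, with 2 called higher and 8 of 10 log2 fold changes positive. This list includes Actc1, and the ranges of the ratio of Acta1 to Actc1 per length overlapped between the groups. The cardiac sum was not split between heart and skeletal muscle, so whether heart RNA rose was not tested. The 6 peripheral nerve markers summed to 16.6 to 24.6 CPM and 31.2 to 67.6 CPM, with 2 called higher and all 6 positive. The 8 brain markers summed to 7.48 to 19.0 CPM and 18.1 to 81.4 CPM, with 1 called higher and 1 at 0 in every control. The 12 nephron markers had negative log2 fold changes (median -3.37), with none called. In the other 7 lists no defining marker was at 0 in every fetus of a group.

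The calls rested on adjustment over all genes and on few fetuses. Without dysmorphic fetus 1, 3 or 4, or without control fetus 1, 2 or 3, edgeR called 0 of 36 genes and 0 genes in all, whereas all 36 had an unadjusted p below 0.05 in each of those fits and median log2 fold changes of 2.08 to 2.29. Without control fetus 3, whose kidney markers were low, the median was 2.13. With sex as a covariate 0 of the 36 and 5 of all 22690 genes were called, and 36 of the 36 had an unadjusted p below 0.05. Within the fetuses that share a title prefix, the mean was higher in dysmorphic kidneys for 36 of 36 genes in both sets. The median log2 ratios were 2.04 and 2.56. Control fetus 3, whose kidney markers were low, was the only control of the second set. With the prefix as a block 22 of 36 were called higher, beside 1.48% of all genes.

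Most of the 36 genes were scarce in the retro-orbital tumors. Of the 36 genes, 20 were below 1 CPM and 29 below 5 CPM in all 4 tumors, where a count of 3 corresponds to 0.0250 to 0.0319 CPM. The extraocular chain Myh13 was at 0.144, 0.0423, 0.0975 and 0.0812 CPM in the tumors of mice 2, 3, 5 and 6. Myog was listed at 0 in mice 2, 3 and 5 and at 0.0325 CPM in mouse 6, and Myod1 at 0 in the same 3 mice and at 0.114 CPM in mouse 6. Each 0 allows a level up to the 3-count floor above, a limit that covers counting error only.

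Most structural genes were low in the same way. Acta1 was at 0.493, 0.921, 1.01 and 2.24 CPM and Ckm at 0.226, 0.152, 0.142 and 0.439 CPM in mice 2, 3, 5 and 6. Myh8 was at 2.03, 2.47, 3.60 and 12.3 CPM, and Myh3 at 0.811, 1.17, 1.47 and 4.90 CPM. Ttn was at 31.0, 38.5, 53.8 and 81.3 CPM, below each of the 3 control adult kidneys (149, 200.05 and 116.9 CPM). The tumor of mouse 6 was the highest of the 4 in 23 of the 36 genes. For 34 of the 36 genes, the highest retro-orbital value lay below the lowest control fetal kidney; the other 2 were Tnnt1 and Mb. Tnnt1, the slow troponin T, was at 0.431, 0.220, 30.5 and 0.633 CPM, and stood apart in mouse 5. In that tumor 8 brain markers summed to 17.1 CPM, against 2.26 to 2.89 CPM in the other 3. The 8 keratinocyte markers summed to 49.99 CPM, against 1.25 to 2.81 CPM, and the 12 nephron markers to 1456 CPM, against 97.6 to 172 CPM. The part of these lists in the Tnnt1 value was not tested. Tpm2, which smooth muscle and fibroblasts also make, was at 25.4 to 36.8 CPM, within or near the 27.5 to 35.2 CPM of the control kidneys.

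**Figure D3:**
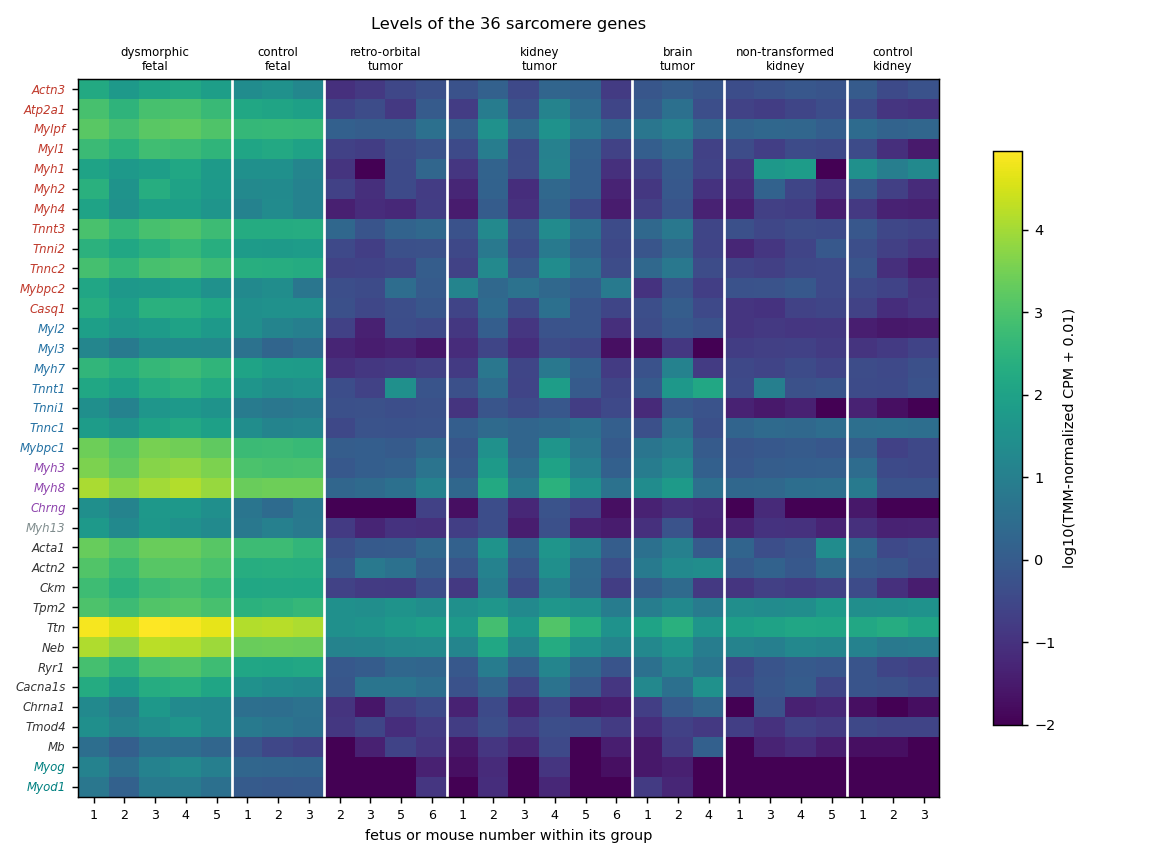
Levels of the 36 genes as log10(CPM + 0.01), 1 column per fetus or mouse and 1 row per gene, with the color scale at the right. The 8 fetal columns are bright throughout, the retro-orbital columns are dark, and the kidney tumors of mice 2 and 4 stand between them.

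Retro-orbital and kidney tumors were compared to ask whether tumors behind the eye held more muscle RNA than those in the kidney. After the count filter 34 of the 36 genes were tested, and 1, Tnnc1, was called lower in retro-orbital tumors, beside 17.7% of 22136 genes called in either direction and 9.45% called lower. None was called higher, in which direction 8.26% of genes were called. Tnnc1, the slow and cardiac troponin C, was at 0.308, 0.600, 0.568 and 0.585 CPM in retro-orbital tumors and at 1.19 to 3.70 CPM (median 2.12) in kidney tumors (log2 fold change -2.09, SE 0.38, edgeR adjusted p = 0.0062). It was also the only one of the 34 whose groups did not overlap, beside 8.48% of all genes lower without overlap, and control kidneys held 3.48, 3.67 and 3.28 CPM. This held for libraries summed by mouse. The single library of mouse 2 tumor 1 was at 0.118 CPM, below all 4 retro-orbital tumors. The median log2 fold change of the 34 genes was -2.12, against -0.09 for all genes, and 30 of the 34 were negative.

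The largest differences had wide errors. Myh8 was at 2.11 to 283 CPM (median 20.8) in kidney tumors, and its difference of -4.06 on the log2 scale had an SE of 1.49 (edgeR adjusted p = 0.087). Acta1 was at 1.13 to 42.9 CPM (median 5.67) in kidney tumors, and its log2 difference of -3.76 had an SE of 1.24 (adjusted p = 0.062 by edgeR). Myh7 differed by -4.05 (SE 1.27) and Ckm by -3.90 (SE 1.36), and neither passed the threshold. In unadjusted tests 17 of the 34 had p below 0.05, all lower, beside 19.4% of all genes, and DESeq2 called 18 lower, beside 14.9% of all genes. Without mouse 1 edgeR called 5 lower (Acta1, Ckm, Myh7, Tnnc1 and Tnnc2), beside 9.54% of all genes. Without mouse 5 it called Mybpc2 and Tnnc1 lower, beside 7.50%. When libraries of a mouse were not summed it called 0 of 34, beside 18.7% of all genes in either direction. In that fit 13 of the 34 had an unadjusted p below 0.05. In the 4 mice that gave both tissues, 29 members were tested, and Tnnc1 was called with and without the mouse as a block. In these 2 fits 13.1% and 14.3% of all genes were called.

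**Figure D4:**
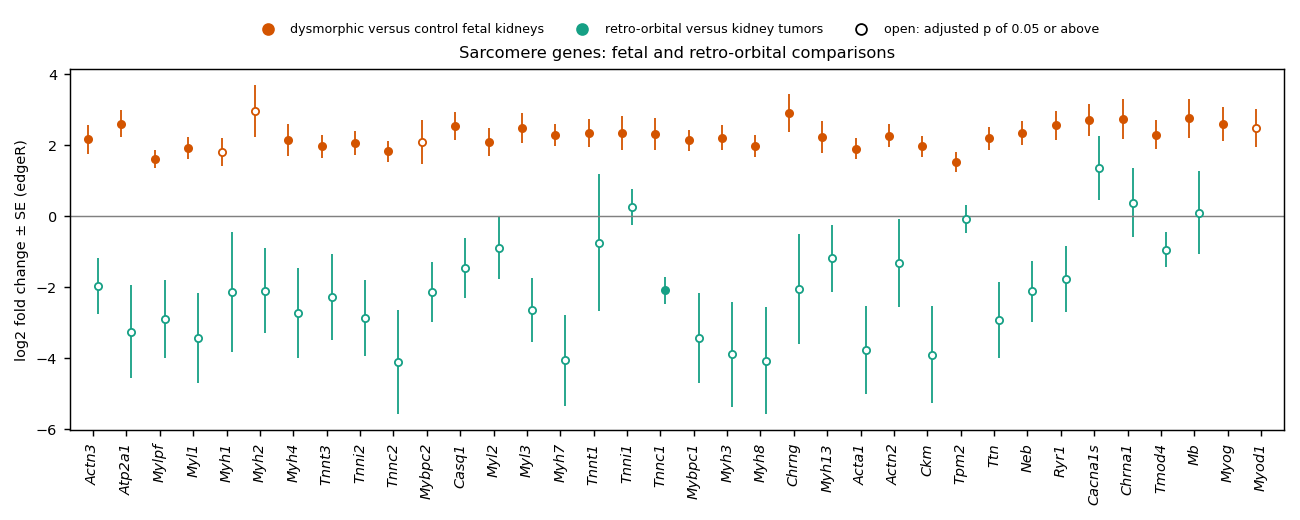
Log2 fold change ± SE from edgeR for each gene, for dysmorphic against control fetal kidneys (orange) and retro-orbital against kidney tumors (green); open points have an adjusted p of 0.05 or above. The orange points run level from 1.53 to 2.95, and the green ones run from -4.10 to 1.35 with longer bars.

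Of the 54 further muscle genes, 47 were tested between retro-orbital and kidney tumors, with 3 called higher and 6 lower, beside 8.26% and 9.45% of all genes. Of the 47 log2 fold changes, 34 were negative, whereas the 4 genes described next were all at higher levels in retro-orbital tumors. Trim63, a ubiquitin ligase of muscle wasting, was at 55.7, 71.1, 54.0 and 53.1 CPM in mice 2, 3, 5 and 6 and at 0.609 to 21.2 CPM in kidney tumors (log2 fold change 2.84, SE 0.69, edgeR adjusted p = 0.020). Jph1, which ties the surface membrane to the calcium store, was at 31.0 to 48.3 CPM against 8.70 to 21.0 CPM (log2 fold change 1.36, SE 0.26, edgeR adjusted p = 0.0070). Cox8b, a mitochondrial subunit of muscle and brown fat, was at 227 to 291 CPM and at 0.899 to 134 CPM (edgeR adjusted p = 0.12). Pvalb, a calcium buffer of fast muscle that kidney tubules also make, was at 192 to 298 CPM and at 15.2 to 183 CPM (edgeR adjusted p = 0.18). In the brain tumors of mice 1, 2 and 4 these genes were measured as well, Trim63 at 44.0, 9.49 and 52.5 CPM, Jph1 at 74.2, 8.72 and 11.0 CPM, Cox8b at 208, 63.0 and 123 CPM and Pvalb at 239, 164 and 258 CPM. None of the 4 was called between retro-orbital and brain tumors, with edgeR adjusted p from 0.19 to 0.98. Of the 54 further muscle genes, 42 were tested there, with 1 called higher and 0 lower, beside 1.34% and 0.395% of all genes. Of those 42 log2 fold changes, 29 were negative. Myom1, a further sarcomere gene, was at 50.1 to 78.3 CPM in retro-orbital and 7.45 to 14.3 CPM in brain tumors.

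Against brain tumors, 32 of the 36 genes were tested and edgeR called 0, beside 1.73% of 21037 genes. Of the 32, 16 had an unadjusted p below 0.05, as did 21.5% of all genes, and DESeq2 called 9, beside 14.7% of all genes. Without mouse 1 edgeR called Ryr1, beside 5.97% of all genes, and without mouse 4 it called Ckm, Mybpc1 and Myh7, beside 4.79%. Ryr1 was at 0.791, 1.02, 2.06 and 1.88 CPM in retro-orbital tumors and 3.73, 12.95 and 5.11 CPM in brain tumors of mice 1, 2 and 4 (log2 fold change -2.38, SE 0.56, edgeR adjusted p = 0.081).

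In kidney tumors the levels differed most between mice. Myh8 was at 2.11, 171, 7.68, 283, 33.9 and 4.29 CPM in mice 1 to 6, and Ttn at 53.8, 748, 52.8, 1174, 212 and 35.8 CPM. Mouse 4 was the highest for 30 of the 36 genes and mouse 2 for 4, and each of these mice was among the highest pair for 33. Single tumors of a mouse differed as well. In mouse 2, tumor 2 held 321.8 CPM of Myh8 and 51.2 CPM of Acta1, while tumor 1 held 2.61 CPM of Myh8 and 20.7 CPM of Acta1. In mouse 4, tumor 1 held 504 CPM of Myh8 and tumor 2 held 62.3 CPM. The 36 genes took 0.252% and 0.367% of the counts in mouse 2 tumor 2 and mouse 4 tumor 1, and at most 0.0618% in any other kidney tumor. Beside these values, 6 adipocyte markers summed to 372.2 CPM in the kidney tumors of mouse 2 and to 62.2 to 124 CPM in those of the other mice. The 12 nephron markers summed to 972 CPM in mouse 2 and 10657 CPM in mouse 4, within the 780.1 to 12758 CPM of the other mice. The 10 cardiac markers summed to 41.4 and 46.9 CPM in mice 2 and 4, against 10.6 to 22.6 CPM in the others. Actc1, which is on this list, was higher in mouse 2 tumor 2 and mouse 4 tumor 1 than in any other kidney tumor library. In mouse 4 the brain markers summed to 51.1 CPM, against 3.65 to 7.07 CPM in the other mice. Cartilage and bone markers summed there to 24.6 CPM, against 3.55 to 9.20 CPM, and keratinocyte markers to 19.2 CPM, against 2.78 to 8.90 CPM. The part of these lists in the muscle levels was not tested.

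**Figure D5:**
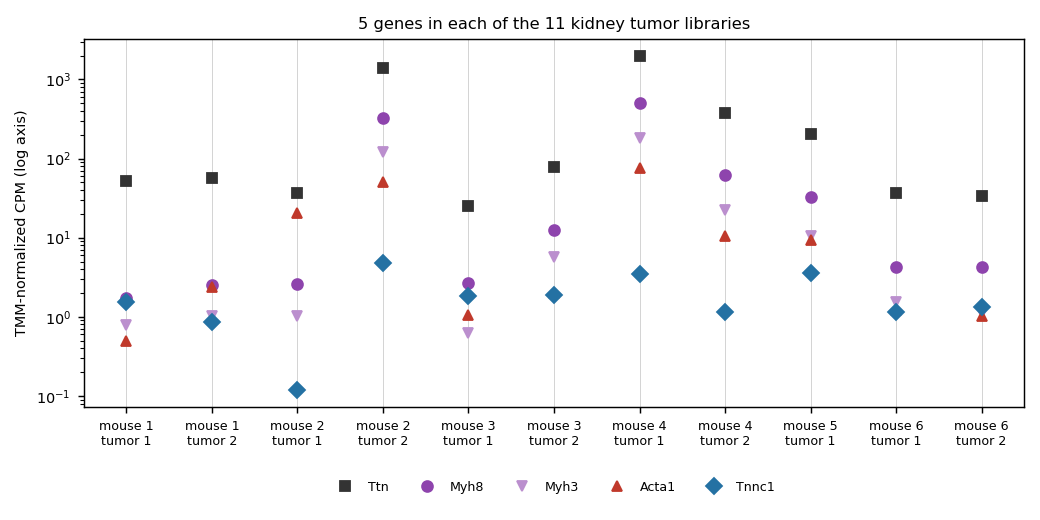
TMM-normalized CPM (log axis) of Ttn, Myh8, Myh3, Acta1 and Tnnc1 in each of the 11 kidney tumor libraries. Ttn, Myh8 and Myh3 rise together in mouse 2 tumor 2 and in both tumors of mouse 4. Tnnc1 runs from 0.118 CPM in mouse 2 tumor 1 to 4.75 CPM in mouse 2 tumor 2.

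Most of the myosin heavy chain signal in these tumors was of the developmental kind, which was not particular to tumors. Myh3 and Myh8 together made up 95.8% of the 7 chains per length in kidney tumors of mouse 2, 94.4% in mouse 4 and 91.6% in mouse 5, beside 94.5% to 97.0% in the fetal kidneys. In the retro-orbital tumors, with 332 to 2446 counts over the 7 genes, they made up 83.3% to 92.1%. In the control adult kidneys, where Myh1 was at 9.21 to 31.9 CPM, they made up 22.4%, 8.49% and 4.02%. In the non-transformed kidneys of mice 1 and 5, Myh8 was at 2.12 and 3.46 CPM, Myh3 at 0.786 and 1.30 CPM and Myh1 at 0.110 and 0 CPM. In those of mice 3 and 4, Myh8 was at 2.21 and 3.20 CPM and Myh1 at 51.5 and 69.1 CPM. Fetal libraries held 395188 to 2295016 counts over these genes. Whether the fetal and tumor reads had a common source was not tested.

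Kidney tumors were set against control kidneys to ask how far the tumors differ from normal kidney. After the filter 32 of the 36 genes were tested and 3 were called higher, beside 12.5% of 23578 genes called higher. No member was called lower, beside 6.51% of all genes. Without fusion mouse 4, 1 of the 32 was called lower, Myh1, beside 7.74% of all genes. Mybpc2, the fast myosin-binding protein C, was at 13.4, 2.21, 4.31, 2.21, 1.21 and 7.22 CPM in tumors of mice 1 to 6 and at 0.336, 0.234 and 0.104 CPM in controls (log2 fold change 4.53, SE 0.95, edgeR adjusted p = 0.013). Its order over the mice differed from that of the other members, with the highest value in mouse 1. Myl2 and Tnni1 were called as well (edgeR adjusted p = 0.026 and 0.021), but at tumor levels of 0.0773 to 1.18 and 0.0992 to 0.755 CPM. Tnni1 was at 0.0373, 0.00901 and 0 CPM in the controls, where 3 counts correspond to 0.0127 to 0.0136 CPM, so that its fitted change depends on the prior count.

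Myh8 had a log2 difference of 5.01 with an SE of 1.98 (adjusted p = 0.10 by edgeR), and Ttn by 1.30 with an SE of 1.13. Of the 32 genes, 5 did not overlap, beside 15.4% of all genes, and 18 had an unadjusted p below 0.05, all higher, beside 21.0% of all genes. DESeq2 called 20 higher, beside 18.1% of all genes. When libraries of a mouse were not summed, edgeR called 19 of 30 higher, beside 25.8% of all genes. Without control mouse 2 or control mouse 3 edgeR called 0 of 36 tested, beside 4.78% and 4.96% of all genes. In those fits 5 and 4 had an unadjusted p below 0.05. Without control mouse 1 edgeR called Mybpc2 and Tnni1, beside 8.55% of all genes. Myh1 ran the other way, at 31.9, 9.21 and 19.97 CPM in control kidneys and 0.0821 to 12.7 CPM in tumors (log2 fold change -2.91, SE 1.33, edgeR adjusted p = 0.15).

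In brain tumors, 3 members that were chosen after their values were seen had levels above most kidney tumors. Cacna1s was at 17.8, 3.78 and 33.0 CPM in mice 1, 2 and 4, against 0.116 to 4.52 CPM in kidney tumors (log2 fold change 3.80, SE 1.05, edgeR adjusted p = 0.055). Tnnt1 was at 0.925, 51.3 and 145 CPM and Actn2 at 7.53, 21.0 and 25.7 CPM. The summed level of 8 brain markers was 4.72, 1050 and 279 CPM in the same 3 tumors, and 51.1 CPM in the kidney tumors of mouse 4, where Tnnt1 was at 74.8 CPM; whether this bears on Tnnt1 was not tested. Of 35 genes tested against kidney tumors, 1 was called, Mybpc2, beside 8.74% of 23391 genes in either direction and 4.20% lower. It was at 0.0925, 0.619 and 0.189 CPM in brain tumors (log2 fold change -3.99, SE 1.04, edgeR adjusted p = 0.047). With the mouse as a block, over the 3 mice that gave both tissues, 0 of 34 members and 0 of 21827 genes in all were called. In that fit 4 members had an unadjusted p below 0.05, and the share of all genes with such a p was not taken. Leaving out 1 mouse in turn, the call of Mybpc2 held without mouse 5 and was lost without mouse 1, 2, 3, 4 or 6. The comparisons among tumors and controls share the kidney tumor libraries, so they are not independent of each other.

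Some counts cannot be given to 1 gene with certainty. By words of 50 bases, 26.7% of the Myh1 transcript, 26.9% of Myh2, 18.9% of Myh4 and 21.4% of Myh8 were also found in transcripts of other genes, chiefly each other, against 4.81% of Myh3 and 8.45% of Myh13. For Myh7, 22.2% was shared with Myh6, and for Myl1, 23.4% with a pseudogene. How the counting treated such reads and the strand is not given in the sources used here. Tnnc2 shares 74.0% of its exon bases with Ube2c on the opposite strand. Ube2c was at 86.7, 91.4 and 98.7 CPM in control and 65.3 to 95.8 CPM in dysmorphic fetal kidneys, where Tnnc2 was at 192 to 225 and 411 to 1018 CPM.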

How the data were processed

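Counts per gene of 36 libraries were used as the authors deposited them, as raw counts with no normalization, in 1 table for Sglt2-Cre and 1 for Pax8-Cre. Per the labels' processing notes, FastQC, MultiQC, Bowtie2, STAR 2.5.2a and the build GRCm38 (mm10) were named; the counter, the annotation and the strand setting are not given in the sources used here. Between 79.04% and 84.33% of counts from 1 to 20 were even, so halved counts were one alternative. Of 53379 genes, 53274 matched GENCODE M21, from which symbols, lengths and overlaps were taken. Length is that of the transcript with the longest coding sequence.

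Libraries of a mouse and group were summed. For each comparison, edgeR 4.0.16 under R 4.3.3 was run on the groups compared (TMM, filterByExpr, quasi-likelihood F-test), with Benjamini-Hochberg adjustment over all tested genes and a threshold of 0.05. SE is the size of the log2 fold change over the square root of F. DESeq2 1.42.0, other scaling, no filter, blocks, unsummed libraries, sex and leaving out each animal were alternatives. The fits were checked on simulated data. Tissues of the same mouse pair the samples; deviations of retro-orbital and kidney tumors of a mouse correlated across genes at 0.137 to 0.260, and those of brain and kidney tumors at -0.047 to -0.020. Nothing says that the libraries of a group came from separate litters, so p-values measure the spread between these animals. The members and the lists were chosen with earlier results of these data known. Any member or list gene could be named.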

Additional observations from a re-analysis of the deposited data

Results flagged for a closer look

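In 79 sets of values of 1 gene over the animals of a group, 7 had 1 animal set apart by Dixon's test. Chance gives about 1 in 20, here 4, for independent and normal values. These sets were not independent, since several genes stood apart in the same tumor, so that number is only a guide. In the retro-orbital tumor of mouse 6, the highest values were Myh8 at 12.3 CPM, Myh3 at 4.90 CPM, Mylpf at 3.77 CPM and Tnnc2 at 1.15 CPM. In that of mouse 5, Tnnt1 stood apart at 30.5 CPM. In the kidney tumors of mouse 4, Tnnt1 stood apart at 74.8 CPM and Myh1 at 12.7 CPM.

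The non-transformed kidneys entered no comparison above. Of the genes at 1 CPM or more, 5 exceeded 2 times the highest control kidney. Myh1 reached 69.1 CPM in mouse 4, against 9.21 to 31.9 CPM in control kidneys. Acta1 reached 24.0 CPM and Actn2 2.51 CPM in mouse 5, against at most 2.15 and 1.02 CPM. In that kidney Tpm2 was at 57.8 CPM and the 8 smooth muscle markers summed to 813 CPM, against 288 to 384 CPM in the other 3 non-transformed kidneys and 349.7 to 452 CPM in control kidneys, and their part in these values was not tested. Tnnt1 reached 10.02 CPM and Myh2 1.52 CPM in mouse 3, against at most 0.546 and 0.722 CPM.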

How the results depend on the processing

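All 36 fetal log2 fold changes were positive under all 15 alternatives. The number of the 36 genes called was 32 with RLE or upper quartile factors, without the filter and on halved counts, beside 1.36% to 3.04% of all genes called higher. It was 36 with DESeq2, beside 8.94%, and 22 with the title prefix as a block, beside 1.48%. With sex as a covariate it was 0, beside 0.0176%. Leaving out 1 fetus in turn gave 0 to 35, with 35 without dysmorphic fetus 2 or 5, beside 4.54% and 3.61% of all genes called higher. Between retro-orbital and kidney tumors the count of 1 became 18 with DESeq2 and 0 with unsummed libraries, beside 27.1% and 18.7% of all genes in either direction. It ran from 1 to 5 leaving out 1 mouse in turn, beside 7.24% to 19.5%. With the mouse as a replicate block, over the mice that gave both tissues, it was 1, as it was without the block in those mice. Of all genes, 13.1% and 14.3% were called in these fits. Between retro-orbital and brain tumors the count of 0 became 9 with DESeq2, beside 14.7% of all genes. It ran from 0 to 3 leaving out 1 mouse, beside 0% to 5.97%. Between brain and kidney tumors the count of 1 became 2 with upper quartile factors and on halved counts, beside 9.16% and 10.4% of all genes. It became 3 with DESeq2 and with unsummed libraries, beside 21.9% and 18.2%, and 0 without the filter, beside 4.68%. It was 0 with the replicate block, where 0 of all genes were called. It was also 0 in the same paired mice without the block, beside 0.179%, a fit added after seeing the data. Leaving out 1 mouse it ran from 0 to 1, beside 1.26% to 6.36%. Between kidney tumors and control kidneys the count of 3 became 20 with DESeq2 and 19 with unsummed libraries, beside 18.1% and 25.8% of all genes called higher. It ran from 0 to 4 leaving out 1 mouse, beside 4.78% to 25.1% in either direction. No named log2 fold change reversed, and the 49 mean myosin heavy chain shares moved by less than 1 SD without length scaling. The cause of these differences was not tested. Depth limits the levels near the 3-count floors given above.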

Other observations

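Myh1, the myosin heavy chain of fast IIx fibers, was above 9 CPM in 5 of the 7 adult kidneys outside the tumors. It was at 51.5 and 69.1 CPM in the non-transformed kidneys of mice 3 and 4 and at 31.9, 9.21 and 19.97 CPM in the control kidneys, all of which Y-linked transcripts marked as female. In the non-transformed kidneys of the male mice 1 and 5 it was at 0.110 and 0 CPM. The pattern was noticed after the values were seen and was not tested. Myh1 made up 90.5% and 92.9% of the 7 chains per length in the kidneys of mice 3 and 4, and 3.19% and 0% in those of mice 1 and 5. Acta1 did not follow it, at 0.463 and 0.677 CPM in mice 3 and 4 and 1.77 and 24.0 CPM in mice 1 and 5. Myhas, an antisense transcript that shares 8.11% of the Myh1 exon bases, was at 0.222 CPM or less in these 7 kidneys.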
